A study of Mus musculus with 12 samples.

Results

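The lysyl oxidase genes are the 5 genes that encode the enzymes starting the covalent crosslinking of collagen and elastin: Lox, Loxl1, Loxl2, Loxl3 and Loxl4. They were taken by symbol, and all 5 are among the 49585 gene identifiers of the count tables. They were measured by RNA-seq in 4 mesenchymal populations sorted from male wild-type C57BL/6 mice aged 8 to 10 weeks, with 3 libraries of 2000 cells for each population. Itga8+ MSCs were gated as Alcam+ and Sca-1-, and bone-lining cells (Itga8- BLCs, which the labels call osteoblasts) as Alcam+ without Itga8. Both of them and Sca-1+ MSCs came from collagenase-digested bone fragments after the marrow had been flushed out. CD51+CD140a+ MSCs, called marrow MSCs here, came from the flushed marrow, which was digested with another enzyme mixture (Accumax), so its tissue and its digestion cannot be told apart. All populations were depleted of cells carrying CD45, Ter119 or CD31, no mouse was treated, and the populations are surface-marker gates of bulk cells, so fewer cells of a type and less RNA per cell cannot be told apart.

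Lysyl oxidases are copper-dependent amine oxidases that are secreted into the extracellular matrix. They oxidise lysine and hydroxylysine residues of collagens and elastin to aldehydes, which then condense into crosslinks and give bone, tendon, vessel wall and skin their tensile strength. Lox and Loxl1 carry a propeptide that is cut off outside the cell, in the case of Lox mainly by the protease Bmp1, whereas Loxl2, Loxl3 and Loxl4 carry scavenger receptor cysteine-rich domains before the catalytic domain.

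The catalytic domain is what the members share, and the stretch around the histidines that bind copper shows how far it diverged. The coding sequence of that stretch, 60 bases long, was read from the GENCODE M21 transcripts (GRCm38) of the 4 Lox-like members. The codons of 3 copper-binding histidines are in capitals.
Loxl1: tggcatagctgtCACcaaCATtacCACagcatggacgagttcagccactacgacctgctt
Loxl2: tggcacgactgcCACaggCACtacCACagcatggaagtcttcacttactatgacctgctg
Loxl3: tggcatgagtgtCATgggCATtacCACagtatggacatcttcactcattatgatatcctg
Loxl4: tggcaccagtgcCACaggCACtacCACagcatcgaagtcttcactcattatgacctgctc
Across all 5 members, 35 of the 60 bases were the same. Lox and Loxl1 were identical at 95.0% of these bases and Loxl2 and Loxl4 at 90.0%, while Loxl3 shared 68.3% with Lox, 68.3% with Loxl1, 76.7% with Loxl2 and 76.7% with Loxl4. The coding sequence held 411 codons in Lox and 607 in Loxl1, and between 754 and 776 in Loxl2, Loxl3 and Loxl4.

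By exact matches the members could be told from one another, since no 50-base word of any member's transcripts occurred in another member. Words with mismatches were not compared. Every word of Lox, Loxl1 and Loxl4 was also absent from all other annotated genes. For Loxl2 (chr14:69609068-69695834, plus strand) this did not hold, because 2299 of its 5356 words occur in Gm21451, an unprocessed pseudogene at chr14:69390854-69480287, and only 8.41% of the words of its coding sequence occur in no other gene. Gm21451 itself had 0 to 17 counts per library, against 371 to 1049 on Loxl2. How reads matching both loci were counted is not given in the sources used here, so the level of Loxl2 is uncertain. Loxl3 (chr6:83034173-83052562, plus strand) shares 535 exon bases, 11.6% of its exons, with Htra2 on the opposite strand, and 401 of its 4694 words occur in that gene, and the use of strand in the counting is not stated. Htra2 was counted at 65.1 to 127 CPM (counts per 1000000 reads, with library sizes scaled by TMM) in Itga8+ MSCs, 66.9 to 105 in Itga8- BLCs, 60.6 to 72.3 in marrow MSCs and 51.3 to 57.7 in Sca-1+ MSCs.

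Libraries held between 17580677 and 31332475 counted reads, and 3 counts corresponded to 0.0819 to 0.18 CPM. Replicates correlated at r = 0.98 to 0.988 in Sca-1+ and marrow MSCs (log2(CPM + 1) over genes), but at 0.855 to 0.962 in Itga8+ MSCs and 0.919 to 0.961 in Itga8- BLCs. The labels were checked with the sorted markers. Itga8 was at 35.2 to 199 CPM in Itga8+ MSCs and at most 4.17 in Itga8- BLCs, although it was also at 53.1 to 82.9 in marrow MSCs, and Ly6a (Sca-1) was at 611 to 658 in Sca-1+ MSCs and at most 35.7 elsewhere. The mRNA of Alcam, by which both Alcam+ populations were gated, was at no more than 5.81 CPM in any library. The mRNAs of the marrow gate, Itgav (CD51) and Pdgfra (CD140a), did not set marrow MSCs apart from Sca-1+ MSCs, at 121 to 195 against 126 to 150 CPM and 681 to 867 against 734 to 1019 CPM, and neither was called between them. Cartilage markers (9 genes, such as Acan and Col2a1) summed to 25209 to 132755 CPM in Itga8+ MSCs and 19074 to 92068 in Itga8- BLCs, against at most 1857 in the other populations. Endothelial and muscle markers (7 and 6 genes) summed to at most 113 and 40.7 CPM in any library, and 6 erythroid markers to 1555 CPM in Itga8+ replicate 2 and at most 415 elsewhere. Mitochondrial genes took 0.546% of counts in Itga8+ replicate 2 and 0.359% in Itga8- replicate 3, against at most 0.1% in the other libraries, and the part of these differences in the levels of the members was not tested. Itga8+ replicate 2 had the lowest cartilage sum of its population and the highest sum of 9 myeloid and lymphoid markers (11835 CPM, against 2305 and 5681 in its replicates), and Itga8+ replicate 3 the opposite.

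Lox, the founding member and the main crosslinking enzyme of collagen I and elastin (ENSMUSG00000024529, chr18:52516067-52529867, minus strand), was lowest in Itga8+ MSCs. Its levels there were 99.1, 43.4 and 293 CPM in replicates 1, 2 and 3. They were 520, 1998 and 816 CPM in Itga8- BLCs, 474, 461 and 783 in Sca-1+ MSCs, and 1009, 705 and 1045 in marrow MSCs. Every Itga8+ library was thus below every other library, with replicate 3 nearest to them. The 3 other populations overlapped one another, and none of their pairwise differences in Lox was called. The summed level of 9 osteoblast markers was 1959 to 2718 CPM in Itga8+ MSCs, 2778 to 4393 in Sca-1+ MSCs, 9956 to 28124 in Itga8- BLCs and 9508 to 19967 in marrow MSCs. Single markers did not all follow that order, since 8 of 9 were called lower in Itga8+ MSCs than in Itga8- BLCs (2.16% of all genes), but 5 higher (12.9%) and 1 lower (8.89%) than in Sca-1+ MSCs, where Bglap and Sp7 averaged 0.716 and 1.84 CPM against 7.13 and 21.7 in Itga8+ MSCs. Against marrow MSCs, 4 of 9 were called lower (14.3% of all genes) and 5 were not called, and Ibsp alone gave 6817 to 16043 CPM of the marrow sum. The part of osteoblasts in the Lox levels was not tested.

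Loxl3, which is needed for palate and spine formation and oxidises collagens and fibronectin (ENSMUSG00000000693), was highest in Itga8+ MSCs. Its levels were 722, 322 and 956 CPM there, 255, 357 and 190 in Itga8- BLCs, 223, 248 and 212 in Sca-1+ MSCs, and 213, 226 and 273 in marrow MSCs. The Itga8+ libraries lay above all libraries of Sca-1+ and marrow MSCs, and Itga8+ replicate 2 fell below the highest Itga8- library. The other populations overlapped, with fitted differences among them between -0.06 and 0.23 on the log2 scale. In both Alcam+ populations the replicates stood in the order of the cartilage sum, with Itga8+ replicate 3 highest and replicate 2 lowest, and Itga8- replicate 2 highest and replicate 3 lowest. The part of cartilage cells in the Loxl3 level was not tested.

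Loxl1, which maintains elastic fibres and is tethered there by fibulin-5 (ENSMUSG00000032334, chr9:58287738-58313186, minus strand), showed a different order and was lowest in Itga8- BLCs. It was at 15.5, 7.88 and 5.15 CPM in those cells, against 226, 328 and 245 in marrow MSCs, 184, 174 and 144 in Sca-1+ MSCs, then 129, 42.1 and 94.3 in Itga8+ MSCs. None of the 4 ranges overlapped. Only the lowest step of this order, from Itga8+ MSCs to Itga8- BLCs, passed the test.

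Loxl4 (ENSMUSG00000025185, chr19:42593982-42612813, minus strand), and Loxl2, which also crosslinks collagen IV of basement membranes (ENSMUSG00000034205), were both lowest in marrow MSCs. Loxl4 was at 5.13, 3.73 and 6.99 CPM there, against 155, 26.9 and 297 in Itga8+ MSCs, 79.5, 251 and 46.9 in Itga8- BLCs and 60.6, 77.7 and 57.9 in Sca-1+ MSCs. Loxl2 was at 11.2, 10.6 and 18.6 CPM in marrow MSCs, 46.2, 24.6 and 60.6 in Itga8+ MSCs, 42.2, 46.4 and 44.6 in Itga8- BLCs and 26.0, 31.3 and 26.5 in Sca-1+ MSCs. For both genes every marrow library was below every other library, and no difference among the 3 populations from bone fragments was called. Within each of both Alcam+ populations the ratio of the highest to the lowest library was larger for Loxl4 than for any other member. It was 11.0 in Itga8+ MSCs and 5.34 in Itga8- BLCs. In both populations the replicates of Loxl4 stood in the same order as those of Loxl3 and of the cartilage sum. In Itga8+ MSCs those of Lox and Loxl2 stood in that order too, but not in Itga8- BLCs. How many of all genes followed it was not counted. The part of cartilage cells in the Loxl4 level was not tested either.

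**Figure D1:**
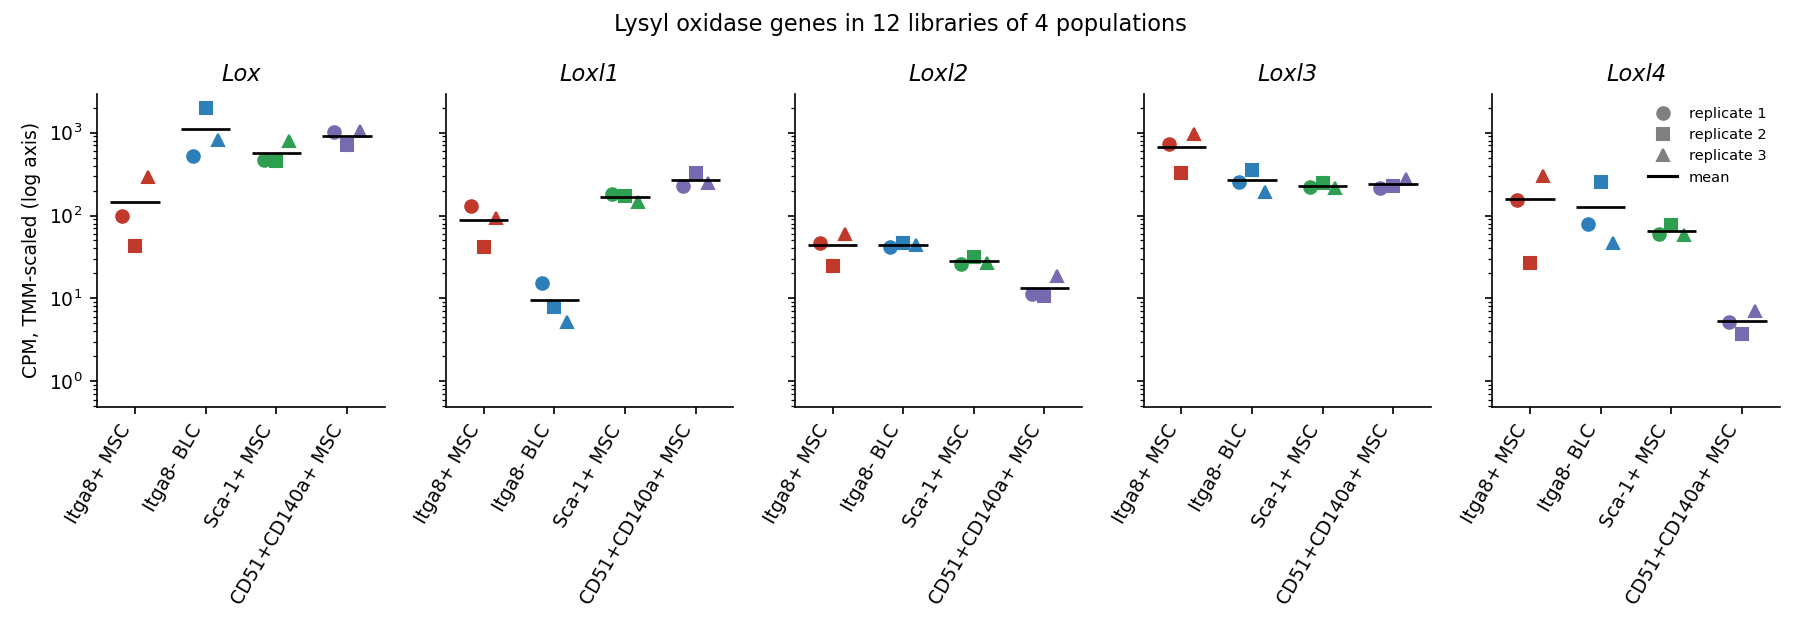
TMM-scaled CPM (log axis) of the 5 lysyl oxidase genes in each library of Itga8+ MSCs, Itga8- BLCs, Sca-1+ MSCs and marrow (CD51+CD140a+) MSCs, with circles, squares and triangles for replicates 1, 2 and 3 and lines for means. Lox was lowest and Loxl3 highest on average in Itga8+ MSCs, Loxl1 was lowest in Itga8- BLCs, and Loxl2 and Loxl4 were lowest in marrow MSCs.

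To compare the members with one another, counts were divided by exon length and expressed as TPM, transcripts per 1000000. Loxl3 was the leading transcript of the family in Itga8+ MSCs and Lox in the other populations. Loxl3 made up 59.8%, 68.1% and 54.8% of the family's TPM in the 3 Itga8+ libraries (60.9% ± 6.71, SD, n = 3), and between 13.7% and 28.4% in the other 9. Lox made up 7.92%, 8.85% and 16.2% in Itga8+ MSCs (11.0% ± 4.53, SD, n = 3), against means of 67.6% ± 10.4 in Itga8- BLCs, 49.1% ± 9.68 in Sca-1+ MSCs and 58.2% ± 7.81 in marrow MSCs. For both members the Itga8+ shares overlapped with no other population, and each comparison gave p = 0.1 in an exact two-sided permutation test, the smallest value that 3 libraries against 3 can give.

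After the leading transcript the order was less clear. In marrow MSCs Loxl1 came next, with 25.0% ± 7.2 of the family's TPM, and in Itga8- BLCs Loxl3 did, with 19.9% ± 7.59, while Loxl1 took 1.16% ± 1.08 there. In Sca-1+ MSCs Loxl1 (21.4% ± 4.73) and Loxl3 (20.8% ± 3.49) were nearly tied, with Loxl3 above Loxl1 in 2 of 3 libraries, and on average when the longest transcript gave the length (22.5% against 20.6%). In Itga8+ MSCs Loxl4 took 14.0%, 6.22% and 18.6% and Loxl1 14.9%, 12.4% and 7.54%, so that Loxl1 was above Loxl4 in replicates 1 and 2 and below it in replicate 3. Loxl4 took 0.377% ± 0.0843 in marrow MSCs. Loxl2 was the smallest or next to smallest share everywhere, at 0.75% to 3.55% on average. Counting only the length of words found in no other gene raised its means to 1.34% to 6.05% and left Loxl3 at 60.7% in Itga8+ MSCs.

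**Figure D2:**
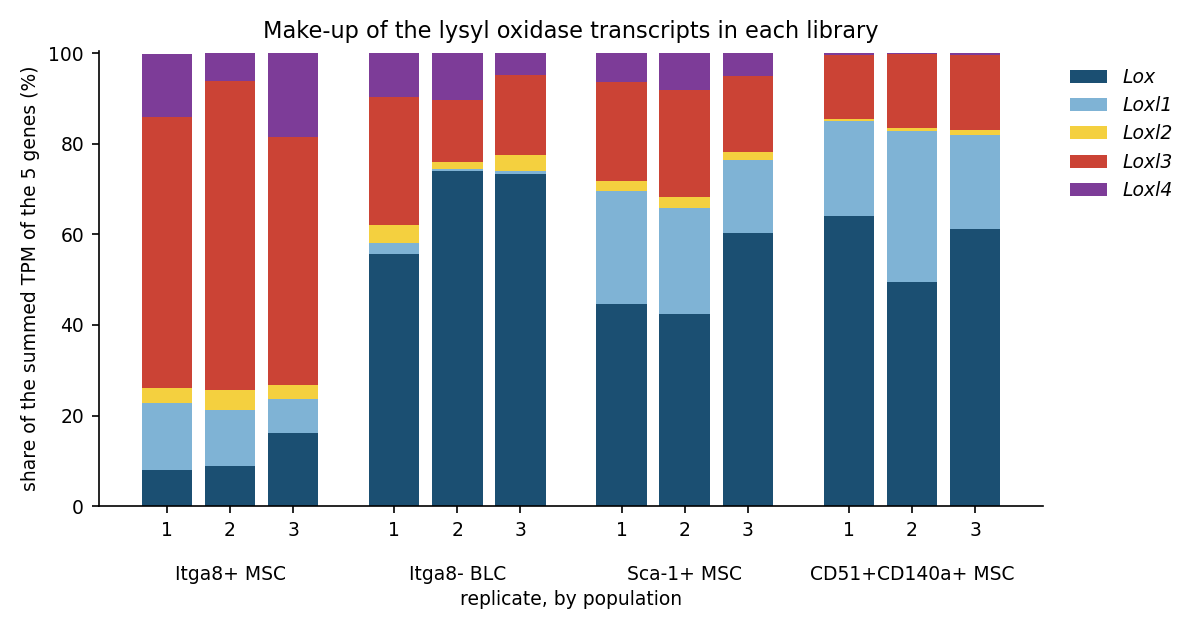
Share (%) of each member in the summed TPM of the 5 lysyl oxidase genes, 1 bar per library, grouped by population with the replicate number under each bar. Loxl3 fills 54.8% to 68.1% of the Itga8+ bars, and Lox is the largest part of every other bar.

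The balance within a library needs no scaling between libraries. The ratio of Loxl3 TPM to Lox TPM was 7.56, 7.69 and 3.38 in Itga8+ MSCs. It was 0.51, 0.185 and 0.241 in Itga8- BLCs, 0.488, 0.558 and 0.281 in Sca-1+ MSCs, and 0.219, 0.332 and 0.271 in marrow MSCs. All 3 Itga8+ libraries were therefore above 1 and all 9 others below it. On the log2 scale the mean was 2.54 ± 0.677 (SD, n = 3) in Itga8+ MSCs, against -1.82 ± 0.758, -1.24 ± 0.525 and -1.89 ± 0.3 in the other populations in the same order, with p = 0.1 in each exact two-sided permutation test, the smallest this design allows. Over all 69 permutation tests made, 49 gave that p, and the smallest Benjamini-Hochberg adjusted permutation p was 0.141. This ratio was chosen after the levels of its members had been seen.

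Marker sums of other cell types were set beside the ratio. Those of cartilage and of myeloid and lymphoid cells overlapped between Itga8+ MSCs and Itga8- BLCs, at 25209 to 132755 and 19074 to 92068 CPM for cartilage and 2305 to 11835 and 4338 to 6495 CPM for myeloid and lymphoid cells, of whose markers Cd3e was at or below 3 counts in every library. Those of tendon and osteoblasts did not overlap, as the ratio did not. The tendon sum (7 genes) was 13128 to 24354 CPM in Itga8+ MSCs, 6454 to 9608 in Sca-1+ MSCs, 3836 to 6586 in Itga8- BLCs and 179 to 254 in marrow MSCs, where Scx and Kera were at or below 3 counts in every library, and the osteoblast sum was lower in every Itga8+ than in every Itga8- library. The part of these cell types in the ratio was not tested.

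**Figure D3:**
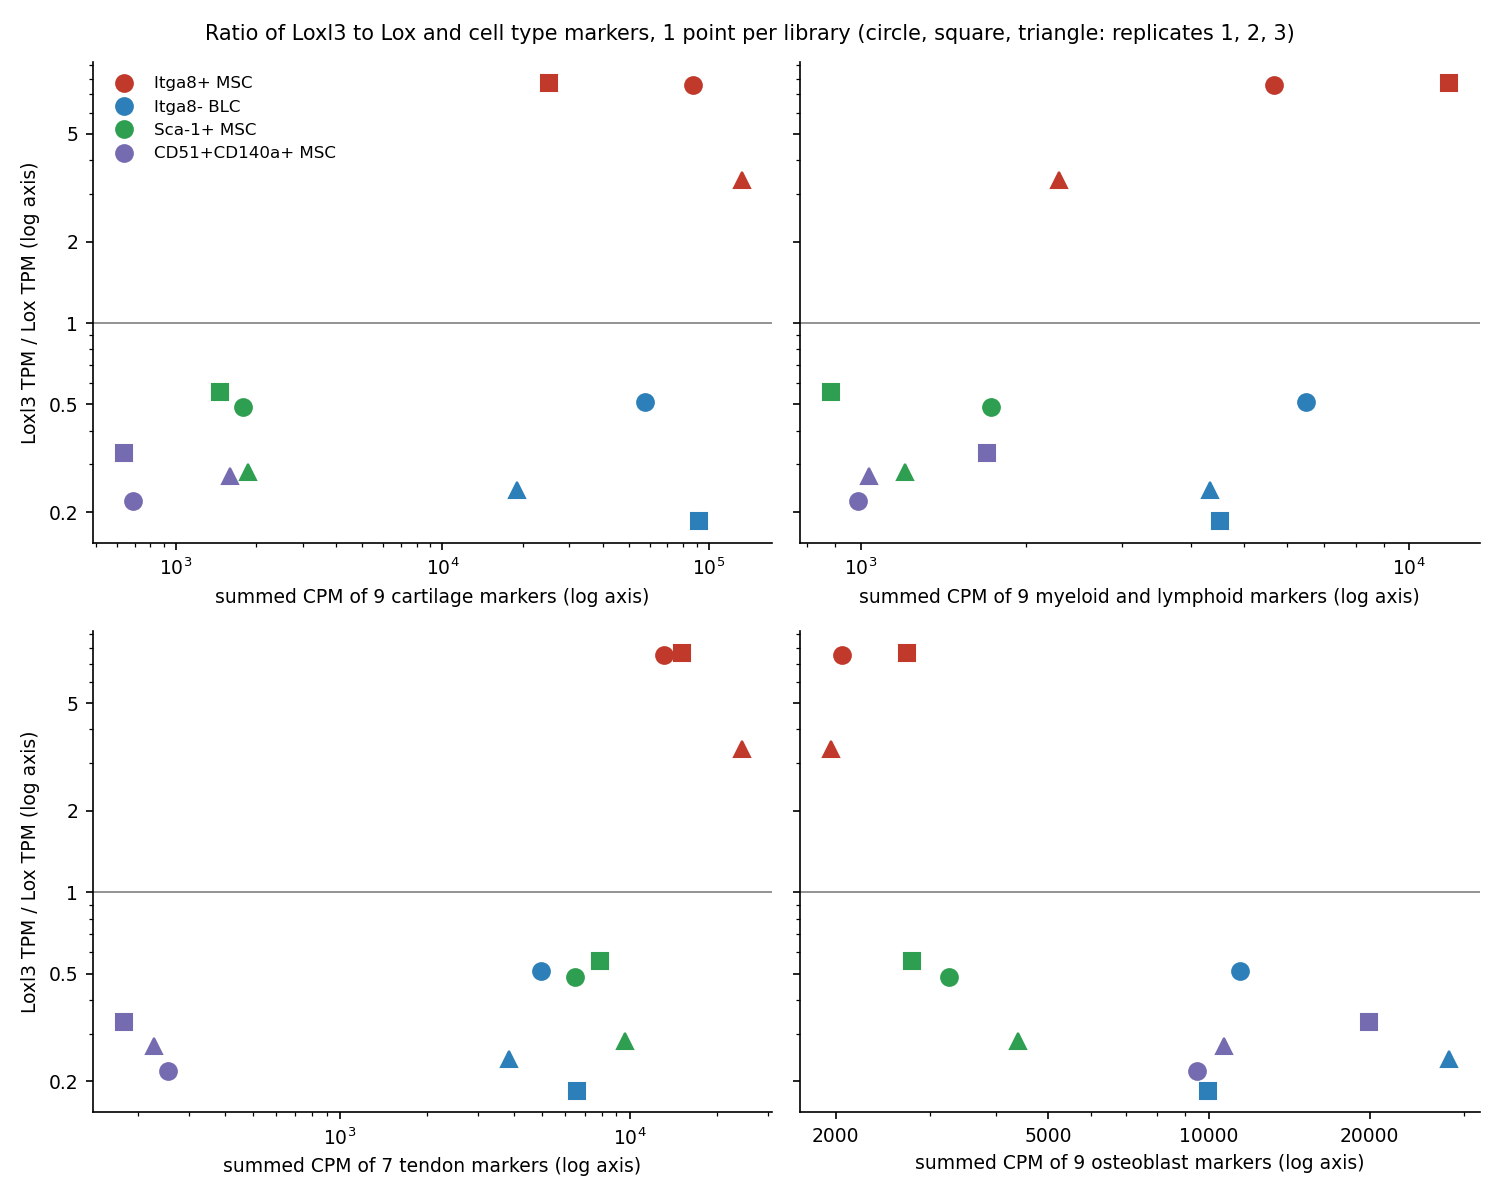
Ratio of Loxl3 TPM to Lox TPM (log axis) in each library against the summed CPM (log axis) of 9 cartilage markers, 9 myeloid and lymphoid markers, 7 tendon markers and 9 osteoblast markers, 1 panel each, with circles, squares and triangles for replicates 1, 2 and 3. The Itga8+ libraries sit at 3.38 to 7.69 and the Itga8- libraries at 0.185 to 0.51, at cartilage, myeloid and lymphoid sums that overlap between both populations and tendon and osteoblast sums that do not.

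The populations were then compared in pairs. One quasi-likelihood fit in edgeR covered all 12 libraries and the 18648 genes that reached 0.5 CPM in any library, and a gene was called at an FDR (Benjamini-Hochberg) under 0.1 with a fold change above 2, the thresholds of the study. All 5 members were tested. Log2 differences are given as the population named first minus the other, with SE and FDR from this fit, so a negative value is lower in the first. The labels do not say that replicates came from separate mice, so p-values measure the spread between libraries, which may be technical.

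Between both Alcam+ populations, which differ in the Itga8 gate, 2 of 5 members were called. Lox was lower in Itga8+ MSCs at a log2 difference of -2.94 ± 0.668 (FDR = 0.04, edgeR) and Loxl1 was higher by 3.22 ± 0.479 (FDR = 0.00321), which correspond to 7.65-fold and 9.3-fold. Over all genes, 1.66% were called higher and 2.16% lower in Itga8+ MSCs, and 14.2% had libraries that did not overlap, as Lox and Loxl1 did. Loxl3 was higher by 1.32 ± 0.373 and missed the threshold (FDR = 0.102), Loxl4 differed by 0.34 ± 0.717 (95% interval -1.25 to 1.94) and Loxl2 by -0.02 ± 0.342 (-0.78 to 0.74). The call of Lox was lost without Itga8+ replicate 1 (-2.72, FDR = 0.149) or without Itga8- replicate 2 (-2.18, FDR = 0.132), and also when only these populations were fitted (-2.92, FDR = 0.222). Without Itga8+ replicate 3 the difference was larger (-3.95, FDR = 0.0085). Loxl3 was called without Itga8+ replicate 2 (1.67, FDR = 0.00733), with RLE size factors (FDR = 0.0891), with library totals (FDR = 0.0422), with a filter of at least 10 counts (FDR = 0.0886) and with DESeq2 (FDR = 0.0114). Of the marker lists, 6 of 7 tendon and 1 of 7 endothelial markers were called higher and 8 of 9 osteoblast markers lower in Itga8+ MSCs. The part of these cell types in the differences was not tested. The study itself singled out Tnmd and Kera of the tendon list from these libraries. Their calls and their share of the tendon sum are thus not independent evidence.

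Between Itga8+ and Sca-1+ MSCs, both from bone fragments, 2 of 5 members were called. Loxl3 was higher in Itga8+ MSCs by 1.55 ± 0.375 (FDR = 0.0166, edgeR) and Lox was lower at a log2 difference of -1.98 ± 0.644 (FDR = 0.0581). The background was 12.9% of genes higher and 8.89% lower, and 37.6% without overlap, against 3 of 5 members, namely Lox, Loxl1 and Loxl3. Loxl1 differed by -0.92 ± 0.441 (FDR = 0.17), Loxl2 by 0.65 ± 0.344 (FDR = 0.21) and Loxl4 by 1.29 ± 0.728 (FDR = 0.236). The call of Lox was lost without Itga8+ replicate 1 (-1.77, FDR = 0.149), Itga8+ replicate 2 (-1.57, FDR = 0.105), Sca-1+ replicate 2 (-2.12, FDR = 0.101) or Sca-1+ replicate 3 (-1.69, FDR = 0.164), and when only these populations were fitted (FDR = 0.105), whereas without Itga8+ replicate 3 it was -3.04 (FDR = 0.00684). Loxl4 was called once Itga8+ replicate 2 was left out (1.77, FDR = 0.062). All 9 cartilage, 6 of 8 myeloid and lymphoid and 5 of 9 osteoblast markers tested were also called higher in Itga8+ MSCs. So were 3 of 5 muscle, 2 of 7 tendon and 1 of 6 LepR stromal markers, the last being Adipoq. Lower were 1 osteoblast, 2 LepR stromal and 1 endothelial marker, and the part of these cell types in the differences was not tested.

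Between Itga8+ and marrow MSCs, the endosteal and the marrow population, all 5 members were called and none overlapped. Loxl4 was higher in Itga8+ MSCs by 4.92 ± 0.847 (FDR = 0.00118, edgeR), a 30.2-fold difference that was 4.12 on the log2 scale without Itga8+ replicate 3, Loxl2 by 1.70 ± 0.352 (FDR = 0.00377) and Loxl3 by 1.49 ± 0.375 (FDR = 0.0112). Lox was lower at a log2 difference of -2.66 ± 0.66 (FDR = 0.0105) and Loxl1 at -1.59 ± 0.448 (FDR = 0.02), and the difference in Lox was -3.68 without Itga8+ replicate 3. This comparison had many calls throughout, with 21.2% of genes higher, 14.3% lower and 44.4% without overlap. Markers of several cell types moved with the members here. All 7 tendon, all 9 cartilage, 6 of 8 myeloid and lymphoid, 3 of 5 muscle and 2 of 7 endothelial markers tested were called higher in Itga8+ MSCs, and all 6 LepR stromal markers were called lower, with sums of 201 to 599 CPM against 44709 to 61165. The myeloid and lymphoid sum was 989 to 1698 CPM in marrow MSCs and 883 to 1727 in Sca-1+ MSCs. The part of these cell types in the differences was not tested.

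The remaining 3 comparisons, which share libraries with those above, turned on Loxl1, Loxl2 and Loxl4. Loxl1 was lower in Itga8- BLCs than in Sca-1+ MSCs at a log2 difference of -4.14 ± 0.499 (FDR = 0.000203, edgeR), and -4.73 without Itga8- replicate 1, the only member called there, beside 14.5% of genes higher and 11.9% lower. In that comparison Loxl1 and Loxl2 did not overlap, against 45.7% of genes. Relative to marrow MSCs, Loxl1 was lower in Itga8- BLCs at -4.81 ± 0.515 (FDR = 4.01e-05), a 28.0-fold difference, while Loxl4 was higher by 4.57 ± 0.833 (FDR = 0.0016) and Loxl2 by 1.72 ± 0.352 (FDR = 0.00334). Without Itga8- replicate 2 the difference in Loxl4 was 3.58. These 3 were also the members without overlap, and the background was 20.4% higher, 14.9% lower and 49.8% without overlap. Between Sca-1+ and marrow MSCs, Loxl4 (3.63 ± 0.798, FDR = 0.00714) and Loxl2 (1.05 ± 0.346, FDR = 0.0581) were higher in Sca-1+ MSCs, with 11.2% of genes higher and 9.3% lower. Loxl1, Loxl2 and Loxl4 did not overlap there, against 45.9% of genes. The call of Loxl2 was lost with library totals (0.92, under the fold threshold) and without any 1 of the 6 libraries compared except marrow replicate 3 (0.91 to 1.10, FDR = 0.11 to 0.189).

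Cell type markers moved with these differences too. In Itga8- BLCs all 9 cartilage markers were called higher than in Sca-1+ or marrow MSCs. So were 7 of 9 osteoblast and 5 of 8 myeloid and lymphoid markers against Sca-1+ MSCs, where 3 of 7 tendon markers were called lower. In the same comparison 2 of 6 LepR stromal markers were called higher and 3 lower in Itga8- BLCs. Against marrow MSCs, 5 of 9 osteoblast, 6 of 8 myeloid and lymphoid and 5 of 7 tendon markers were called higher, and 1 osteoblast and 1 tendon marker lower. Of 6 LepR stromal markers, 5 were called lower in Itga8- BLCs and all 6 lower in Sca-1+ MSCs than in marrow MSCs. Sca-1+ MSCs also had 6 of 9 osteoblast markers lower, and 5 of 7 tendon and 2 of 9 cartilage markers higher, than marrow MSCs. The part of these cell types in the differences was not tested.

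**Figure D4:**
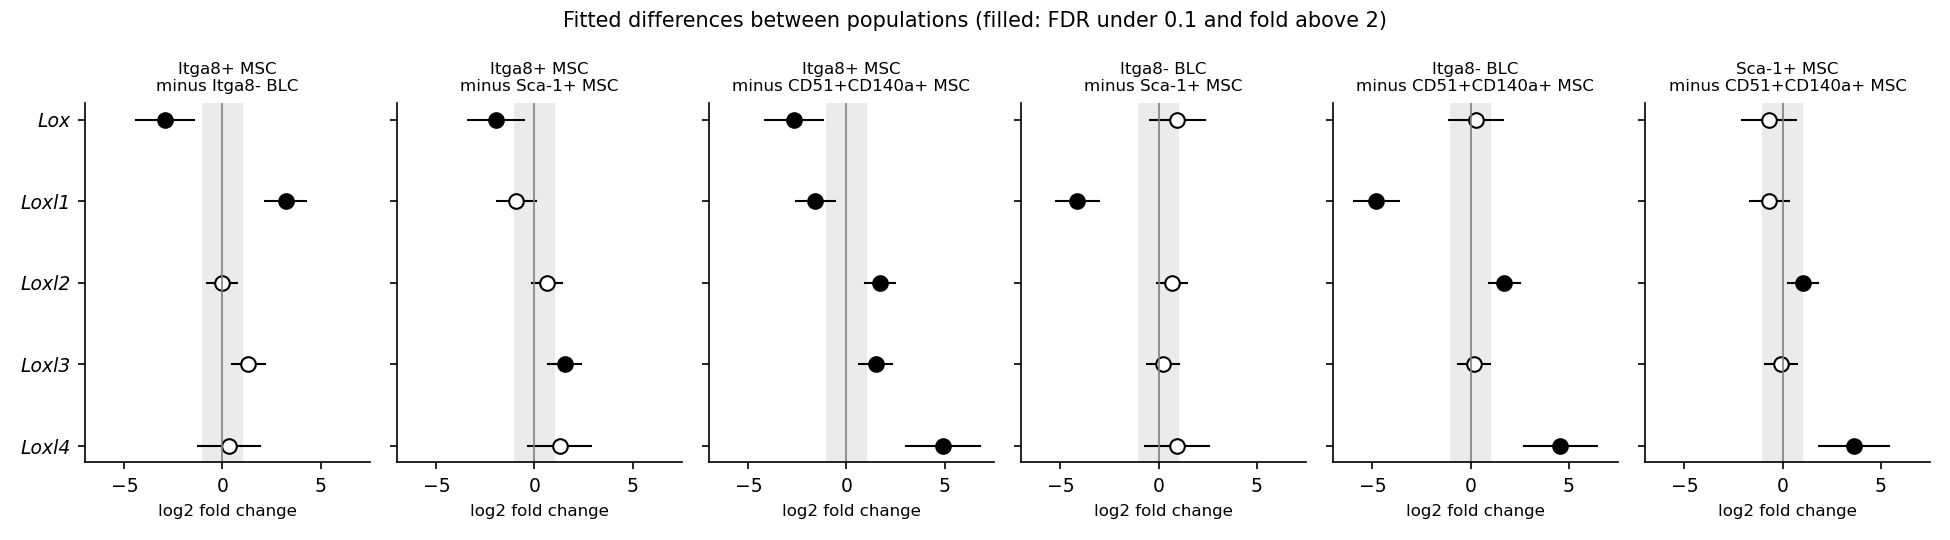
Fitted log2 fold changes (points) with 95% intervals (lines) of the 5 members in the 6 comparisons, as the population named first minus the other, with filled points for members called and a grey band for fold changes up to 2. Lox is called in 3 comparisons, each time lower in Itga8+ MSCs, and Loxl2 and Loxl4 in the 3 comparisons with marrow MSCs.

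Over the 12 libraries the members did not move as a block. Pearson's r of log2(CPM + 1) was 0.936 between Loxl2 and Loxl4, the pair with 90.0% identity at the copper site, and -0.098 between Lox and Loxl1, the pair with 95.0%. Lox and Loxl3 had r = -0.461. Among 10419 other protein-coding genes with a mean of at least 5 CPM, the genes most like Lox were Phex, an endopeptidase of osteoblasts and osteocytes (0.954), Mylip (0.942) and Elmo1 (0.941). Phex was at 106 CPM in Itga8- BLCs, 97.3 in marrow MSCs, 32.0 in Sca-1+ MSCs and, on average, only 1.43 in Itga8+ MSCs.

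The gene most like Loxl1 was Fbln1 (0.97), which encodes the elastic fibre protein fibulin-1, then Egfr (0.963) and Stoml1 (0.952), which lies 25218 bases from Loxl1 on the opposite strand. For Loxl2 they were Tfeb (0.977), Tmem161a (0.976) and Csgalnact1 (0.962), an enzyme of chondroitin sulphate synthesis. For Loxl3 they were Gfra1 (0.934), a receptor of GDNF, Fads1 (0.917) and Plekha7 (0.907), and for Loxl4 Kcna6 (0.984), Cobll1 (0.979) and Nfatc2 (0.975), a transcription factor of the NFAT family. These values describe 12 libraries in 4 groups that share their group differences, and carry no test.

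The proteins that activate, place and supply lysyl oxidases were examined by role. Of 5 genes of propeptide processing, Bmp1, the protease that activates Lox, was the only one called between Itga8+ MSCs and Itga8- BLCs, and it was lower in Itga8+ MSCs, as Lox was, beside 2.16% of all genes. Bmp1 was at 35.6 to 203 CPM in Itga8+ MSCs, 489 to 791 in Itga8- BLCs, 161 to 238 in marrow MSCs and 264 to 387 in Sca-1+ MSCs. It differed by -2.26 ± 0.504 from Itga8- BLCs (FDR = 0.036, edgeR) and by -1.36 ± 0.49 from Sca-1+ MSCs (FDR = 0.0806), where it was again the only one of the 5 called, beside 8.89% of all genes lower. In the comparisons with marrow MSCs the calls of Bmp1 and Lox differed. Bmp1 was not called between Itga8+ and marrow MSCs (-0.57 ± 0.483, FDR = 0.383, edgeR, libraries overlapping), where Lox was, and it was called higher in Itga8- BLCs than in marrow MSCs (1.69 ± 0.494, FDR = 0.0229), where Lox was not. Pcolce2, an enhancer of procollagen processing, was at 4.73 to 8.41 CPM in marrow MSCs and at 305 to 681 in every other library.

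Among matrix proteins that bind lysyl oxidases or their substrates, Postn, Mfap4 and Fmod had their highest means in Itga8+ MSCs. Of 7 such genes, 3 were called against Itga8- BLCs, all higher in Itga8+ MSCs (1.66% of all genes), with a list median of 2.19 on the log2 scale beside 0.08 over all genes. Postn, periostin, which promotes the activation of Lox by Bmp1, was at 1251 to 5669 CPM in Itga8+ MSCs and 61.8 to 155 in Itga8- BLCs (4.97 ± 0.62, FDR = 0.00131, edgeR). Mfap4, a microfibril protein that the study itself singled out from these libraries and which is thus not independent evidence, was at 310 to 594 CPM against 13.6 to 28.0 (4.44 ± 0.466, FDR = 0.000482). Fbln5, fibulin-5, which binds Loxl1 at elastic fibres, was at 144 to 242 CPM in Itga8+ MSCs and 37.8 to 49.1 in Itga8- BLCs (2.19 ± 0.276, FDR = 0.00137). Fmod, fibromodulin, which modulates collagen crosslinking by Lox and is also a tendon marker here, was at 5536 to 12458 CPM against 3406 to 5794 and was not called (0.98 ± 0.338, FDR = 0.213).

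Fbln5 was highest in marrow MSCs, at 2487 to 3370 CPM, the population in which Loxl1 was also highest. The other scaffold genes did not share that pattern. Against marrow MSCs, 5 of 7 were higher in Itga8+ MSCs (21.2% of all genes) and Fbln5 was lower (14.3% of all genes), and Fn1, fibronectin, was at 27.7 to 68.0 CPM there against 1238 to 13410 in Itga8+ MSCs. Against Sca-1+ MSCs, Postn and Mfap4 were called higher and Ltbp4, which takes part in elastic fibre assembly, lower (-3.11 ± 0.988, FDR = 0.0534, edgeR), beside 12.9% of all genes higher and 8.89% lower. Efemp2, fibulin-4, which brings Lox to tropoelastin, was at 236 to 314 CPM in Itga8+ MSCs and 255 to 441 in Itga8- BLCs, and was not called between them.

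Of 3 genes of copper supply, none was called by edgeR, DESeq2 or limma-trend between Itga8+ MSCs and Itga8- BLCs or Sca-1+ MSCs, with 0 and 1 at an unadjusted edgeR p under 0.05. Against the marrow population 2 were higher in Itga8+ MSCs (21.2% of all genes), namely Slc31a1, the copper importer (1.17 ± 0.213, FDR = 0.0017, edgeR), and Atox1, a copper chaperone whose libraries overlapped (1.75 ± 0.711, FDR = 0.082). Atp7a, the pump that loads copper onto secreted enzymes, was at 12.6 to 85.0 CPM in Itga8+ MSCs and 52.0 to 67.6 in marrow MSCs and was not called in any of the 6 comparisons.

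The lysine hydroxylases prepare collagen lysines for crosslinking, and Fkbp10 is a chaperone of this step. Of Plod1, Plod2, Plod3 and Fkbp10, 3 passed the test as higher in Itga8+ MSCs than in marrow MSCs, all but Plod3 (0.18 ± 0.327, FDR = 0.695, edgeR), beside 21.2% of all genes. The libraries of Fkbp10 overlapped in that comparison. Plod2, which hydroxylates the collagen telopeptides, was at 48.9 to 53.9 CPM in marrow MSCs, 354 to 837 in Itga8+ MSCs, 708 to 1112 in Itga8- BLCs and 277 to 400 in Sca-1+ MSCs. None of these 4 genes was called by edgeR, DESeq2 or limma-trend between Itga8+ MSCs and Itga8- BLCs or Sca-1+ MSCs, with 0 and 3 at an unadjusted edgeR p under 0.05.

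Of the 8 substrate genes, 1 was called higher and 3 lower in Itga8+ MSCs than in Itga8- BLCs, beside 1.66% and 2.16% of all genes. Col1a2 was lower at a log2 difference of -3.99 ± 0.765 (FDR = 0.0153, edgeR) and Col1a1 at -3.90 ± 0.971 (FDR = 0.0592), the 2 chains of collagen I, and Col5a2 of collagen V at -2.35 ± 0.651 (FDR = 0.0949). Eln, elastin, was higher by 3.00 ± 0.822 (FDR = 0.0902), at 1.92 to 32.1 CPM against 1.20 to 3.15, ranges that overlapped. Col3a1 was highest in Sca-1+ MSCs, at 41319 to 50173 CPM, against 293 to 5035 in Itga8+ MSCs (-4.40 ± 0.972, FDR = 0.0104). Among 6 other crosslinking enzymes and copper amine oxidases, none was called by edgeR or limma-trend between Itga8+ MSCs and Itga8- BLCs, 1 was called by DESeq2 and 2 had an unadjusted edgeR p under 0.05. Aoc2 and Aoc3 were highest in Sca-1+ MSCs, at 23.0 to 60.7 and 31.7 to 35.7 CPM. Tgm2, transglutaminase 2, was not called in any comparison.

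Enzyme and substrate transcripts were then set side by side. Per 1000 TPM of Col1a1, Col1a2 and Col3a1 together, the 5 lysyl oxidases reached 193, 560 and 142 TPM in Itga8+ MSCs and 654, 679 and 576 in marrow MSCs. They reached 12.3, 17.5 and 35.5 TPM in Itga8- BLCs and 28.2, 24.6 and 33.4 in Sca-1+ MSCs. Itga8+ and marrow MSCs were thus above both other populations in every library, with p = 0.1 in each exact two-sided permutation test on the log2 scale, the smallest possible. The summed TPM of the family varied less, at 1008, 255 and 1419 in Itga8+ MSCs, 653, 1862 and 529 in Itga8- BLCs, 845, 847 and 992 in Sca-1+ MSCs and 1431, 1157 and 1378 in marrow MSCs, and these ranges overlapped for every pair of populations except Sca-1+ and marrow MSCs. The high value of 560 in Itga8+ replicate 2 stood beside the lowest Col1a1 level of that population, 213 CPM. Col2a1, a collagen listed here with the cartilage markers, was left out of the denominator. Its mean was 23261 TPM in Itga8+ MSCs and 12045 in Itga8- BLCs, against 464 in Sca-1+ and 278 in marrow MSCs. In Itga8+ MSCs Col1a1, Col1a2 and Col3a1 averaged 2561, 1858 and 808 TPM. Ratios with Col2a1 included were not computed, so the separation holds only for the collagens summed.

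Values by member used the same denominator of Col1a1, Col1a2 and Col3a1, called collagen here, and leave out Col2a1 as well. Loxl3 accounted for most of the ratio in Itga8+ MSCs, with 116, 381 and 77.7 TPM per 1000 TPM of collagen, against 3.49, 2.39 and 6.28 in Itga8- BLCs. In marrow MSCs Loxl3 was at 92.0, 111 and 95.5, which overlapped with Itga8+ MSCs (p = 0.6, exact two-sided permutation test on the log2 scale). Lox was the largest member there, with 419, 335 and 352. Loxl4 per collagen was 27.1, 34.8 and 26.3 in Itga8+ MSCs and between 1.19 and 2.67 in the other 9 libraries, the narrowest spread of any member in Itga8+ MSCs. Lox per collagen overlapped between Itga8+ MSCs, Itga8- BLCs and Sca-1+ MSCs.

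**Figure D5:**
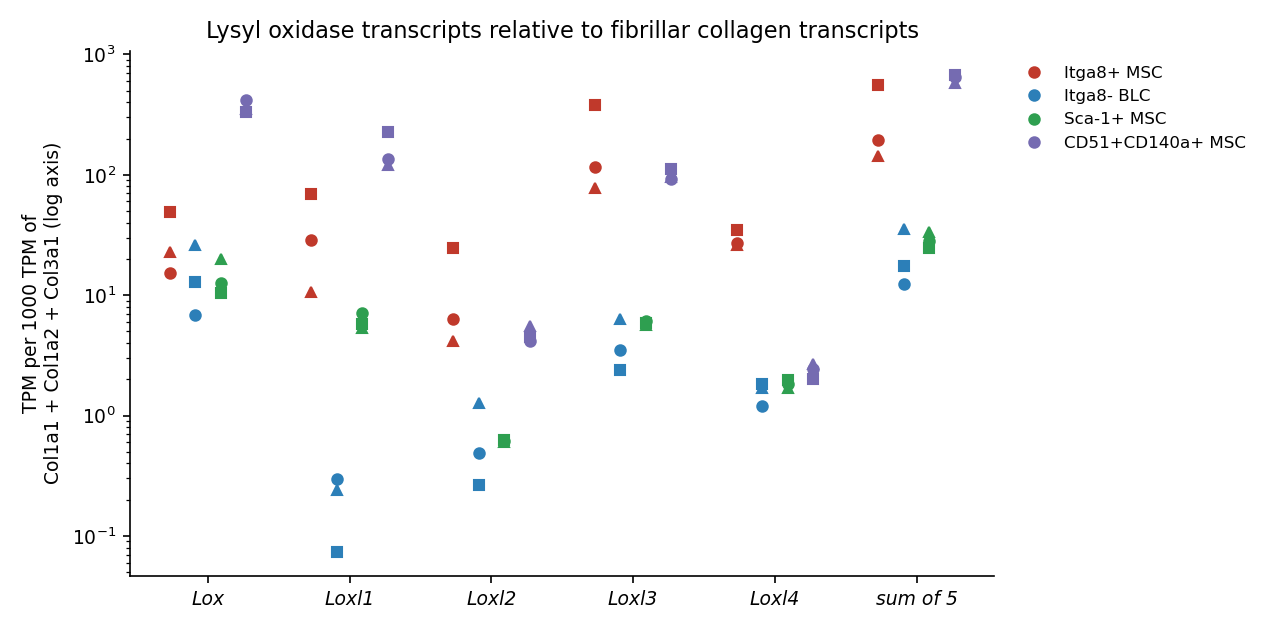
TPM of each lysyl oxidase gene, and of their sum, per 1000 TPM of Col1a1, Col1a2 and Col3a1 together (log axis), in each library of the 4 populations, with circles, squares and triangles for replicates 1, 2 and 3. The sum lies between 142 and 679 in Itga8+ and marrow MSCs and between 12.3 and 35.5 in the other libraries. Col2a1 is not part of the denominator.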

How the data were processed

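RNA was extracted with NucleoSpin columns, amplified with SMART-Seq v4, made into Nextera XT libraries and sequenced on a NextSeq 500. The authors deposited raw read counts per Ensembl gene, 1 column for each of the 12 libraries. Their processing notes name FastQC 0.11.7, Trimmomatic 0.38, HISAT2 2.1.0, SAMtools 1.9 and featureCounts 1.6.3, whereas the methods of the study name TopHat and Bowtie2 with mm10. The annotation release and strand setting are not given in the sources used here.

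Of 49585 gene identifiers, 49326 were matched to GENCODE M21 (GRCm38), which gave names, coordinates, exon lengths for TPM and transcript sequences, and 259 were not. Samples were grouped by their labels. Counts were scaled by TMM and fitted with the quasi-likelihood test of edgeR 4.0.16 in R 4.3.3, all 12 libraries together, for genes reaching 0.5 CPM in any library. Calls needed a Benjamini-Hochberg FDR under 0.1 and a fold above 2. Shares and ratios were compared by exact permutation tests. The t quantiles of the 95% intervals came from scipy 1.17.1. Words of 50 bases were compared between transcripts of all annotated genes. Alternatives were RLE factors, library totals, 2 other filters, a stricter FDR, a replicate block, fits of 2 populations, each library left out, limma-trend (limma 3.58.1), DESeq2 1.42.0 and other gene lengths. Intervals and the floor of 3 counts cover counting or library spread only, since the reads carry no molecular identifiers.

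The members, gene lists and tests were chosen with earlier results of these data known. The genes named are the 5 members, the genes of the lists and, for each member, the 3 genes with the highest correlation.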

Additional observations from a re-analysis of the deposited data

How the results depend on the processing

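Of 630 values for single members under an alternative, 596 kept their direction and side of the threshold, 16 were no longer called, 6 became called and 12, none of them called, changed sign. The number of members called stayed at 5, 1 and 3 under every alternative for Itga8+ against CD51+CD140a+ MSCs, and for Itga8- BLCs against Sca-1+ and CD51+CD140a+ MSCs. Between Itga8+ MSCs and Itga8- BLCs it went from 2 to 1 with only these populations in the fit, rose to 3 with RLE factors, library totals, the filter of 10 counts and DESeq2, and ranged from 1 to 3 with 1 library left out. Between Itga8+ and Sca-1+ MSCs it went from 2 to 1 at an FDR under 0.05 and with only these populations, and ranged from 1 to 2 with 1 library left out. Between Sca-1+ and CD51+CD140a+ MSCs it went from 2 to 1 with library totals and at an FDR under 0.05, and ranged from 1 to 2 with 1 library left out. The cause was not tested.

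With library totals, the sign changed for Loxl2 between Itga8+ MSCs and Itga8- BLCs (0.24), and for Lox (-0.15) and Loxl3 (-0.19) between Itga8- BLCs and CD51+CD140a+ MSCs. This scaling moved the median over all genes from 0.08 to 0.34 in the first of these comparisons and from 0.09 to -0.24 in the other. With 1 library left out, log2 differences between Itga8+ MSCs and Itga8- BLCs ranged from -0.32 to 0.29 for Loxl2 and from -0.45 to 1.36 for Loxl4. Between Itga8- BLCs and Sca-1+ MSCs they ranged from -0.074 to 0.427 for Loxl3 and from -0.089 to 1.33 for Loxl4, and between Itga8- BLCs and CD51+CD140a+ MSCs from -0.47 to 0.61 for Lox and from -0.10 to 0.36 for Loxl3. For Loxl3 between Sca-1+ and CD51+CD140a+ MSCs they ranged from -0.131 to 0.053. The difference in the log2 ratio of Loxl3 to Lox ranged from 4.05 to 4.78 against Itga8- BLCs, 3.48 to 4.17 against Sca-1+ MSCs and 4.22 to 4.82 against CD51+CD140a+ MSCs; this ratio, its alternatives and the length over words in no other gene were chosen after seeing the data.

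With the replicate number as a block, 2, 2, 5, 1, 3 and 2 members were called in the 6 comparisons, as without it. The numbers are not shown to pair the samples, since the correlation of deviations of same-numbered libraries ran from -0.736 to 0.342.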
